A study of Homo sapiens with 12 samples.

Results

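In a knockout clone of human fibroblasts, 38 protein-coding genes were read at a mean of 2 CPM (gene count divided by the library total, scaled to 1e6) or more, while wild-type cells had no more than 1/16 of that level. LEO1 is a subunit of the PAF1 complex, which travels with RNA polymerase II and takes part in elongation and in the placing of histone marks. The members were chosen by their measured CPM, as genes with a mean of at least 2 CPM over the 6 Leo1 libraries and a mean over the 6 WT libraries at or under 1/16 of it. They are 38 of 60671 genes in the table, of 19926 protein-coding genes, and of 10847 protein-coding genes that reached 2 CPM in the Leo1 libraries. The same rule with the genotypes exchanged found 102 genes. The genotype contrast chose the members, so their levels in both genotypes are given as a description without a test.

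BJ-5ta cells, human foreskin fibroblasts immortalized with telomerase, were compared with a ΔLEO1 line that is a single clone, made with guides against exons 1 and 2 of LEO1. Both lines were grown in 10% serum or kept for 10 days in 0.1% serum, a condition in which fibroblasts leave the cell cycle. Polyadenylated RNA was sequenced with synthetic ERCC transcripts spiked in at 1 dilution, in 4 groups of 3 libraries, numbered 1 to 3 (WT, 10% serum), 4 to 6 (Leo1, 10%), 7 to 9 (WT, 0.1%) and 10 to 12 (Leo1, 0.1%). In these bulk libraries a low level in every cell and a high level in few cells cannot be told apart. A property of the clone that has nothing to do with LEO1 cannot be told apart from an effect of the knockout, since only 1 clone was sequenced.

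Library totals ran from 26240632 to 45315560 gene counts. LEO1 itself had 682 to 1001 counts in the WT libraries and 23 to 55 in the Leo1 libraries. The highest-numbered library of each group stood apart: its chi-square per gene against the other libraries of its group was 53.9 to 116.5, and that of the remaining pairs was 2.73 to 10.2. Results that rest on these libraries are given with and without them. Summed fibroblast markers (collagens, decorin, lumican and others, 10 genes) lay between 52946 and 76650 CPM in every library, so both lines read as fibroblasts. Neither the labels nor the methods state whether the libraries of a group came from separate cultures, and the p-values measure only the spread between these libraries.

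Cells keep most genes of other tissues silent. Their promoters may lack the factors that start transcription, or may sit in chromatin closed by histone H3K9 or DNA methylation, and a gene that is off in a fibroblast can therefore belong to any lineage. The 38 members fell on 18 chromosomes. By role they were grouped as 6 secreted proteins, matrix proteins and ligands, 6 adhesion and surface glycoproteins, and 9 receptors and 4-pass membrane proteins. The rest were 6 enzymes, transporters and lipid carriers, and 11 muscle, signalling and other proteins. These roles were not counted over other genes, so no share is read from them. Their mean level in the Leo1 libraries ran from 2.25 to 1551 CPM with a median of 6.41 CPM. Levels of 10 CPM or more were reached by 11 members, and 14 stayed under 5 CPM.

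In the WT libraries, 3 members (RNF180, TENM1 and MS4A4A) had no count at all, 12 had 1 to 9 counts summed over the 6 libraries, and 23 had 10 or more. Those 6 libraries held 208259145 counts in all. A total of 0 therefore allows up to 0.0144 CPM (3 counts), which covers counting error only. All 38 members passed the filter of the tests below, more than 1 CPM in at least 3 libraries, but 31 of them passed through the Leo1 libraries alone. All 6 Leo1 libraries lay above all 6 WT libraries for 35 members, and for 7.84% of all 13236 genes that passed the filter. Nothing is read from that share, because the rule used this contrast. Only PSG2, PSG6 and NPPB overlapped between the genotypes.

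**Figure D1:**
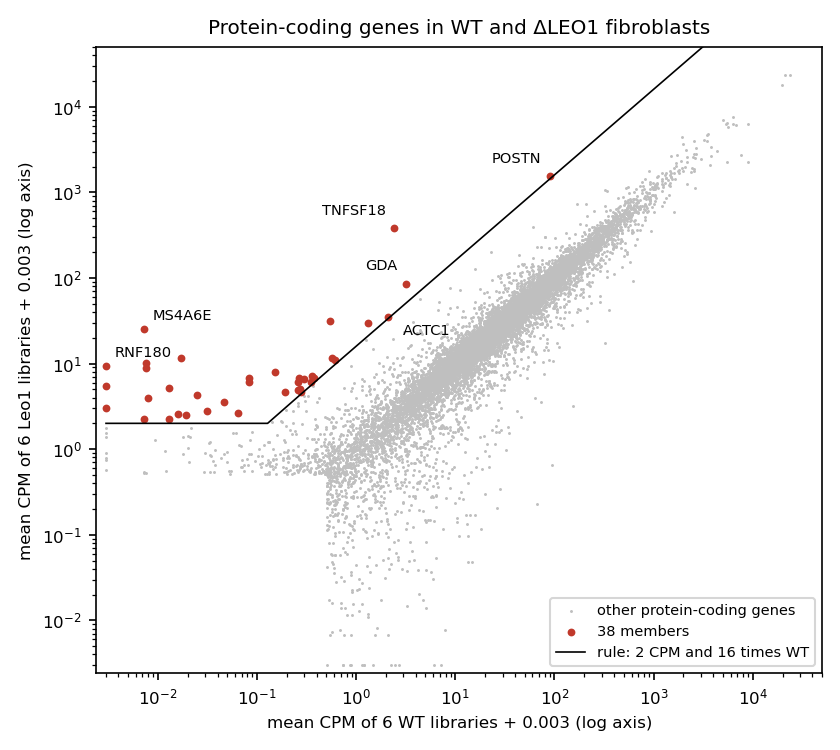
Mean CPM of the 6 WT libraries (x axis) against the 6 Leo1 libraries (y axis) for protein-coding genes with at least 0.5 CPM in either, both axes logarithmic after adding 0.003 CPM. Red points are the 38 members and the line is the rule that chose them; POSTN and ACTC1 lie close to the line, and RNF180 sits at the left edge with no WT count.

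The stretches before the start sites of 6 members are shown, because they include the 2 members with the highest levels (POSTN and TNFSF18), the 2 nearest the ratio threshold (ACTC1 and AOC2), 1 with no WT count (RNF180) and the only member called higher in low serum relative to other genes (LUZP2). Each line holds the 100 bases before the RefSeq start site (GRCh38.p14), 5′ to 3′ on the gene's strand, and capitals mark a match to a motif searched in all promoters.
POSTN, minus strand, chr13:37598769-37598868: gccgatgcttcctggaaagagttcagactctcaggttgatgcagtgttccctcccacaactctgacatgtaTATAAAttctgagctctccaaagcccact
TNFSF18, minus strand, chr1:173050942-173051041: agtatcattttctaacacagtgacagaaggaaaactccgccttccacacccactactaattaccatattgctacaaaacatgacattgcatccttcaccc
ACTC1, minus strand, chr15:34795550-34795649: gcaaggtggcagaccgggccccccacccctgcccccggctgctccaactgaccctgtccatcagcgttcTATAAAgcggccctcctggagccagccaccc
AOC2, plus strand, chr17:42844480-42844579: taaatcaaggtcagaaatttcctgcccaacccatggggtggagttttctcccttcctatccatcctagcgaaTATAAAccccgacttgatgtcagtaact
RNF180, plus strand, chr5:64165743-64165842: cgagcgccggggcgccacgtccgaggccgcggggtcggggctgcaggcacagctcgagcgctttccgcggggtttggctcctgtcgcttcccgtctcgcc
LUZP2, plus strand, chr11:24496953-24497052: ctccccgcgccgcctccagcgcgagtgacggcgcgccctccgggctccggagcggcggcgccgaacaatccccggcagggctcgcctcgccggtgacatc

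The letters TATAAA, the core of a TATA box, began at position -29 from the start site of POSTN, -31 from that of ACTC1 and -28 from that of AOC2. Windows from 250 bases before to 50 after the start were found in the RefSeq table for 27 of the 38 members. In 17 of these the RefSeq start lay within 500 bases of the start of the gene in the GENCODE annotation, and in 10 it lay farther away, among them GDA, RGS7BP and PRLR. TATAAA on either strand was present in 8 of the 27 windows (29.6%), in 9.59% of 15816 windows of other protein-coding genes, and in 4.91% of the 8912 of these genes that reached 2 CPM in the Leo1 libraries. These counts take any position in the window. In MS4A4A the letters began at -157, in OR2T8 at -131 and in RTN1 at 19. In IFI27 and PRLR they lay on the opposite strand only. IFI27, PRLR, MS4A4A and RTN1 are among the 10 windows farther from the GENCODE start.

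CpG-rich windows, with an observed over expected CpG ratio of 0.6 or more, made up 12 of 27 (44.4%) among the members, 65.8% among the other protein-coding genes and 86.4% among those at 2 CPM or more. RNF180 and LUZP2, with ratios of 1.05 and 1.02, were among the richest with MAPK8IP2 (1.07), and SUCNR1 and CPA3 held no CpG at all. The GC box letters GGGCGG, on either strand, were in 10 windows (37.0%) and in 58.5% and 71.9% of the 2 comparison sets. CCAAT, on either strand, was in 9 windows (33.3%), close to the 36.4% and 37.1% of the comparison sets. The AP-1 letters TGACTCA were found in 1 window (3.70%, against 3.66% and 2.74%), the E-box letters CACGTG in 1 (3.70%, against 8.89% and 10.4%), and the cyclic AMP response element TGACGTCA in none (2.60% and 3.51% of the comparison sets). These counts describe letters in the windows and were not tested.

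**Figure D2:**
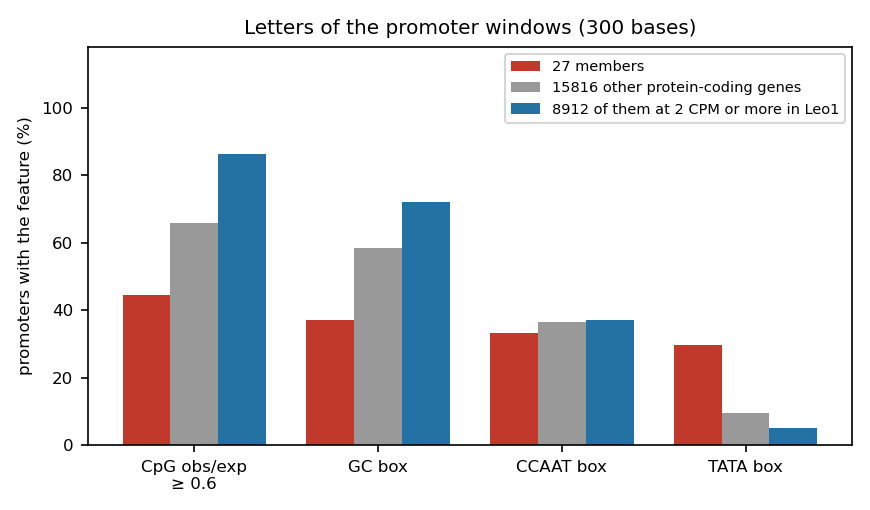
Percent of promoter windows (y axis) with a CpG ratio of at least 0.6, a GC box, a CCAAT box or a TATA box for the 27 members with a window (red), other protein-coding genes (grey) and those of them at 2 CPM or more in Leo1 libraries (blue). The boxes are letters at any position in the window, on either strand. Members had CpG-rich windows in 44.4% and TATA letters in 29.6%, against 86.4% and 4.91% of the expressed genes.

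Among the secreted proteins, matrix proteins and ligands, POSTN was by far the most abundant transcript of the set. It encodes periostin, a matrix protein that binds collagen and is made in tissues under mechanical load and in healing wounds, and it lies on chr13:37562583-37598844. In 10% serum its level was 2542, 2578 and 1805 CPM in the Leo1 libraries and 115, 76.1 and 5.74 CPM in the WT libraries. In 0.1% serum the Leo1 libraries had 786, 722 and 869 CPM and the WT libraries 140, 95.04 and 110 CPM. The WT library with 5.74 CPM is the highest-numbered of its group. POSTN met the rule in 10% serum (35.2-fold) and not in 0.1% serum (6.88-fold), and without the highest-numbered libraries its WT level was 6.43% of the Leo1 level, just over the limit of the rule. It made up 54.4% to 75.1% of the summed CPM of the members in a Leo1 library. The other 37 members together took 592 to 981 CPM in the Leo1 libraries and 7.64 to 23.1 CPM in the WT libraries.

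TNFSF18, on chr1:173039960-173050963, encodes the ligand of GITR, a costimulatory receptor of T cells. Its level was even across the knockout libraries, with 385, 399 and 353 CPM in 10% serum and 386, 357 and 407 CPM in 0.1% serum. The WT libraries had 2.495, 2.42 and 3.01 CPM in 10% serum and 3.24, 2.67 and 0.687 CPM in 0.1% serum. The ratio of the means was 158. Per kilobase of exon TNFSF18 (190 CPM per kilobase) was next to POSTN (284), and MS4A6E came after them with 23.8.

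CPA3 encodes a carboxypeptidase that mast cells store in their granules. The Leo1 libraries had 45.8, 46.1 and 60.7 CPM in 10% serum and 9.86, 8.52 and 17.3 CPM in 0.1% serum, and no WT library was over 1.28 CPM. Other genes of mast cells were at or near 0: the tryptases TPSAB1 and TPSB2, the receptor chain MS4A2, HDC and HPGDS had 3 counts or fewer in every library, and KIT was at 1.67 CPM in WT and 0.1 CPM in Leo1 libraries. These 6 genes summed to 0.587 to 2.87 CPM in WT and 0.0662 to 0.198 CPM in Leo1 libraries.

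PSG2 and PSG6 belong to the pregnancy-specific glycoproteins, which the placenta secretes in large amounts. PSG2 had 13.3, 15.8 and 11.5 CPM in the Leo1 libraries of 10% serum, and 0.546, 0.523 and 0.850 CPM in those of 0.1% serum. PSG6 had 11.6, 11.8 and 11.8 CPM in 10% serum, and 0.604, 0.646 and 0.510 CPM in 0.1% serum. Their WT levels were 0.587 to 0.740 CPM and 0.329 to 0.816 CPM in 10% serum and at most 0.0597 CPM in 0.1% serum, so knockout cells in 0.1% serum overlapped wild-type cells in 10% serum. Of the stretches of 58 bases in the transcripts, the length of a read, 16.2% of PSG2 and 13.2% of PSG6 also occurred in other genes, mostly other PSG genes, so their counts may be split among copies. The placental genes CSH1, GCM1 and ERVW-1 had 3 counts or fewer in every library, and the list of 6 summed to 3.70 to 8.72 CPM in WT and 5.75 to 8.75 CPM in Leo1 libraries, mostly KRT7.

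NPPB, the gene of the B-type natriuretic peptide of heart muscle, was among the members nearest the floor of 2 CPM. It had 2.55, 2.52 and 8.22 CPM in the Leo1 libraries of 10% serum and 0.115, 0 and 0.227 CPM in those of 0.1% serum. Its membership rests on library 6: without the highest-numbered libraries its mean was 1.30 CPM.

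The adhesion and surface glycoproteins numbered 6. PCDHGB5 is 1 of the protocadherins of the gamma cluster, whose genes have their own first exon and share the last ones. Its Leo1 libraries had 28.3, 27.3 and 26.4 CPM in 10% serum and 32.3, 29.1 and 36.9 CPM in 0.1% serum, and the WT libraries 0.597 to 1.68 CPM. Of its 58-base stretches, 54.2% are shared with other gamma genes, and reads there cannot be assigned to 1 gene. PCDH9, a protocadherin of neurons, had 12.1 to 13.9 CPM in 10% serum and 8.71 to 12.5 CPM in 0.1% serum, with 3 counts in the WT libraries together. PCDH7 was lower, at 3.38 to 5.61 CPM over the Leo1 libraries. FAT3, a giant cadherin, had 7.45 to 8.23 CPM in 10% serum and 3.29 to 5.55 CPM in 0.1% serum.

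TENM1 encodes a teneurin, a transmembrane protein that pairs with partners on neighbouring neurons. The WT libraries had no count, and the Leo1 libraries had 3.95 to 5.83 CPM in 10% serum and 5.75 to 7.11 CPM in 0.1% serum. Against the limit of 3 counts over the WT group the knockout level was at least 375-fold higher. The annotated span of TENM1 overlaps STAG2 on the other strand, which was at 116 CPM in Leo1 and 123 CPM in WT libraries, and whether the counting used the strand is not given in the sources used here. PODXL, podocalyxin, a sialomucin of kidney podocytes and vessel walls, varied more, with 17.9, 21.5 and 7.70 CPM in 10% serum and 7.30, 9.90 and 2.58 CPM in 0.1% serum, lowest in the highest-numbered library of both groups.

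Among the receptors, NPBWR1, which binds the neuropeptides B and W, was even, with 8.79, 8.85 and 8.35 CPM in 10% serum and 8.94, 7.44 and 10.4 CPM in 0.1% serum. A single count was read in the 6 WT libraries. GFRA1, the binding subunit of the GDNF receptor, had 7.58, 7.35 and 1.10 CPM in 10% serum and 8.11, 9.28 and 6.97 CPM in 0.1% serum, so library 6 alone was low. PRLR, the prolactin receptor, had 3.47 to 8.80 CPM over the Leo1 libraries and ADGRD1, an adhesion G protein-coupled receptor, 1.79 to 3.22 CPM. The olfactory receptor OR2T8 had 0.945 to 3.23 CPM, and 49.7% of its 58-base stretches occur in other genes, chiefly OR2T33.

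SUCNR1, the receptor of succinate, and LRP2, megalin, an endocytic receptor of absorbing epithelia, were highest in library 6. SUCNR1 had 4.18, 4.66 and 12.1 CPM in 10% serum, against 1.38, 1.08 and 0.595 CPM in 0.1% serum. LRP2 had 3.27, 3.31 and 10.8 CPM, against 0.575, 1.05 and 2.27 CPM. Both still met the rule without the highest-numbered libraries.

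MS4A6E and MS4A4A belong to a family of 4-pass membrane proteins best known from B cells, mast cells and macrophages. MS4A6E had 47.9, 44.6 and 34.3 CPM in the Leo1 libraries of 10% serum, 10.7, 9.84 and 3.65 CPM in those of 0.1% serum, and 1 count in the 6 WT libraries. The pooled ratio of counts per total was 5603, with a 95% counting interval from 1005 to 221353. MS4A4A had 5.57, 5.89 and 4.41 CPM in 10% serum, 0.863, 0.646 and 0.878 CPM in 0.1% serum and no WT count. Genes that define blood cells were at or near 0: CD3E, ITGAM, LYZ and TYROBP had 3 counts or fewer in every library, and the macrophage genes CD163, MRC1, C1QA, AIF1 and MARCO were as low. CSF1R, also on the macrophage list, was at 0.551 CPM in Leo1 and 0.331 CPM in WT libraries. The 6 macrophage genes summed to 0.255 to 0.686 CPM in WT and 0.412 to 0.953 CPM in Leo1 libraries. Among the haematopoietic markers PTPRC (CD45) was at 5.49 CPM in Leo1 and 0.367 CPM in WT libraries, just outside the ratio of the rule. The summed list of 10 such markers was 3.26 to 9.62 CPM in Leo1 and 2.37 to 3.31 CPM in WT libraries.

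Of the enzymes and carriers, GDA, guanine deaminase, which turns guanine into xanthine, was the third most abundant member. It had 89.1, 98.2 and 141 CPM in 10% serum and 49.1, 49.3 and 90.5 CPM in 0.1% serum, against 1.98 to 5.33 CPM in the WT libraries. AOC2 and AOC3 encode copper amine oxidases of the retina and of vessel walls and fat. AOC2 had 2.96 to 5.67 CPM and AOC3 1.27 to 3.99 CPM over the 6 Leo1 libraries. MGAT4C, a glycosyltransferase, had 4.14 to 5.72 CPM, with 2 WT counts in all. SLC1A7, a glutamate transporter of the retina, had 5.28, 4.61 and 11.3 CPM in 10% serum and 2.63 to 3.14 CPM in 0.1% serum. FABP4, the fatty acid carrier of adipocytes, had 9.47 to 9.90 CPM in 10% serum and 2.24 to 4.69 CPM in 0.1% serum, while the adipocyte genes ADIPOQ, LEP and LPL had 3 counts or fewer in every library and PPARG was at 0.276 CPM in Leo1 and 5.62 CPM in WT libraries. The list of 6 adipocyte genes summed to 4.08 to 7.20 CPM in WT and 0.684 to 1.29 CPM in Leo1 libraries.

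ACTC1, cardiac alpha-actin, led the remaining members and varied widely. Its Leo1 libraries had 24.2, 21.5 and 138 CPM in 10% serum and 6.76, 9.41 and 7.48 CPM in 0.1% serum. The WT libraries had 2.19, 2.09 and 6.43 CPM in 10% serum and 0.535 to 0.762 CPM in 0.1% serum. Library 6 decides its membership: over all libraries the ratio was 16.6, and without the highest-numbered libraries the WT level was 9.02% of the Leo1 level. The muscle genes MYOD1, MYOG, MYF5, MYH8, CKM and TNNI1 had 3 counts or fewer in every library, and the list of 10 muscle genes, ACTC1 included, summed to 12.4 to 25.0 CPM in WT and 13.4 to 160 CPM in Leo1 libraries. MYH3 was at 4.98 CPM in Leo1 and 2.13 CPM in WT libraries. TNNT1 was at 4.38 and 10.9 CPM and DES at 0.1 and 0.112 CPM. SGCZ, a sarcoglycan, was even at 4.10 to 5.30 CPM.

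STAC, an adaptor of voltage-gated calcium channels, had 11.1, 9.93 and 21.8 CPM in 10% serum and 4.40, 5.41 and 16.3 CPM in 0.1% serum, highest in the highest-numbered library both times. RGS7BP, which anchors G protein regulators at the membrane, had 13.4, 12.6 and 15.9 CPM and 3.34, 2.83 and 12.3 CPM, and its neighbour RNF180, a membrane-bound ubiquitin ligase, had 13.4, 13.3 and 8.96 CPM and 4.74, 5.59 and 9.97 CPM. RNF180 had no WT count, and its level was at least 667-fold higher than 3 counts over the WT group. LUZP2, a leucine zipper protein of the brain, had 5.21, 4.83 and 5.74 CPM in 10% serum and 8.11, 9.38 and 15.01 CPM in 0.1% serum.

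IFI27 is a gene induced by interferons. Its Leo1 libraries had 12.4, 19.4 and 2.09 CPM in 10% serum and 2.27, 2.58 and 1.19 CPM in 0.1% serum, so 4 of the 6 stood under 2.6 CPM. MAPK8IP2, a scaffold of the JNK pathway, had 4.61 to 7.32 CPM in 10% serum and 7.07 to 8.499 CPM in 0.1% serum. DOCK2, an activator of Rac in blood cells, had 6.64 to 8.40 CPM and 1.54 to 3.91 CPM. RTN1, a reticulon of neurons, had 2.14 to 3.51 CPM over the 6 libraries, and NALF1, an auxiliary factor of the sodium leak channel, 1.87 to 2.47 CPM.

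**Figure D3:**
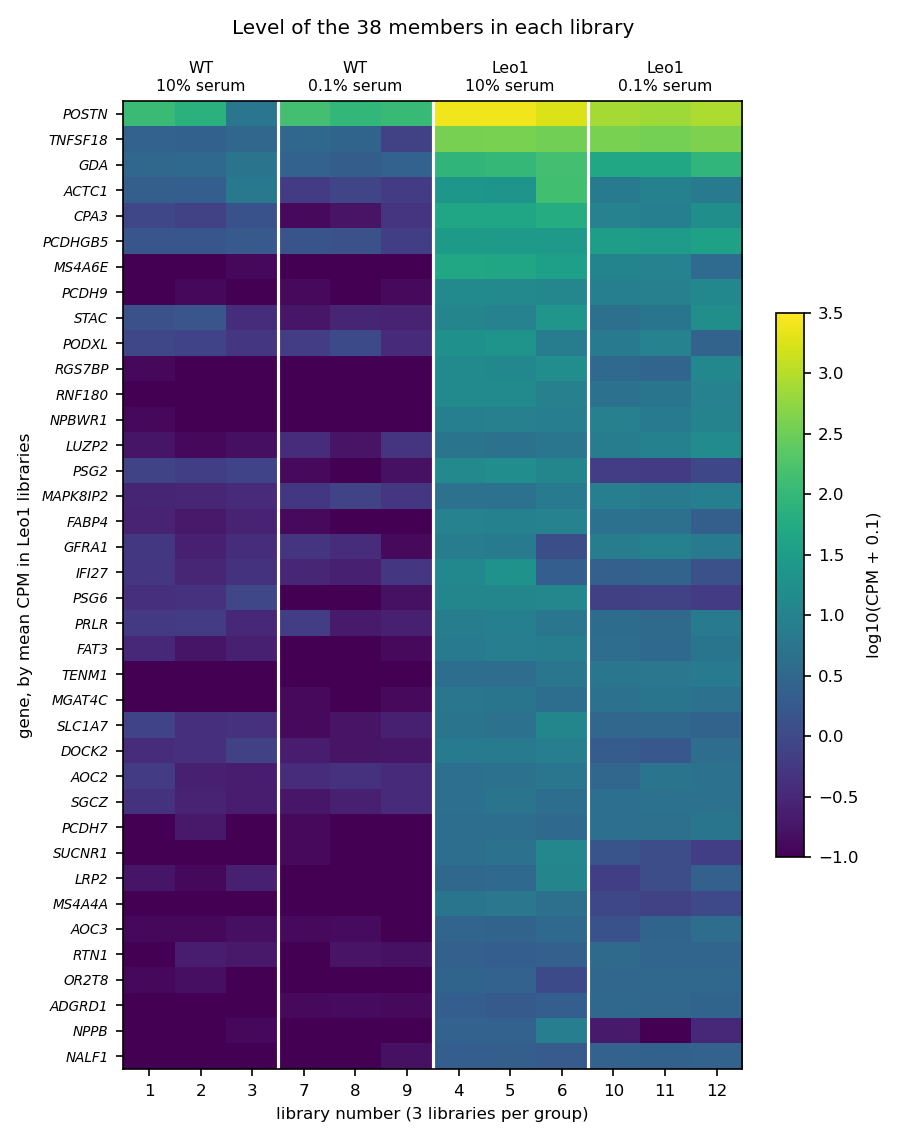
Level of each member (rows, by mean CPM in Leo1 libraries) in each of the 12 libraries (columns, 3 per group), coloured by log10(CPM + 0.1). The 6 WT columns are dark for most rows, and within the Leo1 columns PSG2, PSG6 and NPPB are dark in 0.1% serum.

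Taken by serum level, 36 members met the rule in 10% serum and 26 in 0.1% serum, with 24 in common. Without the highest-numbered libraries 33 genes met the rule, and 30 of these were among the 38. The 8 that dropped out were POSTN, ACTC1, STAC, MAPK8IP2, PRLR, SLC1A7, AOC2 and NPPB. In library 6, ACTC1, STAC, SLC1A7, SUCNR1, LRP2 and NPPB were over 2-fold higher than the mean of libraries 4 and 5 and PODXL, GFRA1, IFI27 and OR2T8 over 2-fold lower. Among tested genes at 1 CPM or more, 0.969% and 1.97% were that far off. In library 12 there were 6 members over 2-fold higher and 5 lower than in libraries 10 and 11, where 2.58% and 1.73% of tested genes were. At the ratio threshold, ACTC1 (16.6) and AOC2 (17.0) stood just inside and TAFA2 (15.03) and PTPRC (14.96) just outside. At the floor, NALF1 (2.25 CPM) and NPPB (2.27 CPM) stood just inside and SLITRK5 (1.76 CPM) and TFAP2B (1.75 CPM) just outside.

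Across the genome the members were scattered, with 5 on chromosome 5, 4 each on chromosomes 1 and 11 and 3 each on chromosomes 3, 8 and 13. Chromosome 13 had the highest share, with POSTN, PCDH9 and NALF1 as 1.55% of the 194 protein-coding genes at 2 CPM or more. Over the genome the members were 38 of 10847 such genes. The share was 0.98% on chromosome 5, 0.773% on chromosome 8 and 0.63% on chromosome 11. On chromosomes 3 and 1 it was 0.491% and 0.359%. The median genomic span of the members was 110524 bases, against 34435 for all protein-coding genes at 2 CPM or more, while the median exon length was 5407 against 5320 bases. The position was not used by the rule, and no test was made.

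Another member lay within 500 kb for 8 of the 38 members, in 4 pairs. RNF180 (chr5:64165844-64372869) and RGS7BP (chr5:64506257-64612312) are 133388 bases apart with no protein-coding gene between them. MS4A4A (chr11:60185702-60317944) and MS4A6E (chr11:60334831-60396596) are 16887 bases apart, and 1 protein-coding gene has its lower coordinate between theirs. The span of MS4A4A overlaps MS4A4E, and that of MS4A6E overlaps MS4A7 and MS4A14, none of them read at 0.5 CPM or more in either genotype. AOC2 (chr17:42844600-42850707) and AOC3 (chr17:42851184-42858130) are 477 bases apart. PSG6 (chr19:42902079-42919563) and PSG2 (chr19:43064211-43083045) are 144648 bases apart, and 2 protein-coding genes have their lower coordinate between theirs. Positions are those of GENCODE 29 on GRCh38, and both genes of each pair lie on the same strand.

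Within 100 kb of the members, 66 other protein-coding genes were read at 0.5 CPM or more in either genotype, and 19 members had no such neighbour. Of the 66, 52 differed by less than 2-fold between the genotypes, 9 were at least 2-fold higher in Leo1 libraries (13.6%, against 3.71% of 12303 protein-coding genes at that level) and 5 at least 2-fold lower (7.58%, against 8.25%), on a scale of CPM plus 0.1. The protocadherin gamma genes around PCDHGB5, which share exons with it, made up 19 of the 66, and 11 of these 19 were within 2-fold, 4 higher and 4 lower. Outside that cluster 41 of 47 were within 2-fold, 5 were higher and 1 lower. The 5 were PSG1 and PSG8 beside PSG6, SPDL1 beside DOCK2, INSYN2B overlapping DOCK2, and RAMP2 beside AOC2 and AOC3. INSYN2B lies on the other strand from DOCK2 and was at 33.9 CPM in Leo1 and 14.3 CPM in WT libraries. Without strand the counts of DOCK2 and INSYN2B may not be separate.

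Next to POSTN, the noncoding gene LINC00547 lies 11047 bases away and was at 2.57 CPM in Leo1 and 0.0131 CPM in WT libraries. TRPC4, the only protein-coding gene read there at 0.5 CPM or more, was at 22.5 and 14.1 CPM. A noncoding gene that overlaps TNFSF18 was at 1.78 and 0.0255 CPM, and 1 that overlaps SLC1A7 at 0.977 and 0.0726 CPM. Where genes overlap, their counts cannot be told apart without strand. By contrast IFI27L1 and IFI27L2, which lie within 100 kb of IFI27, were at 4.40 and 22.1 CPM in Leo1 libraries and at 4.84 and 23.7 CPM in WT libraries. CLCN6, 9385 bases from NPPB, was at 21.9 and 15.97 CPM, and PODN, 1677 bases from SLC1A7, at 88.2 and 137 CPM.

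**Figure D4:**
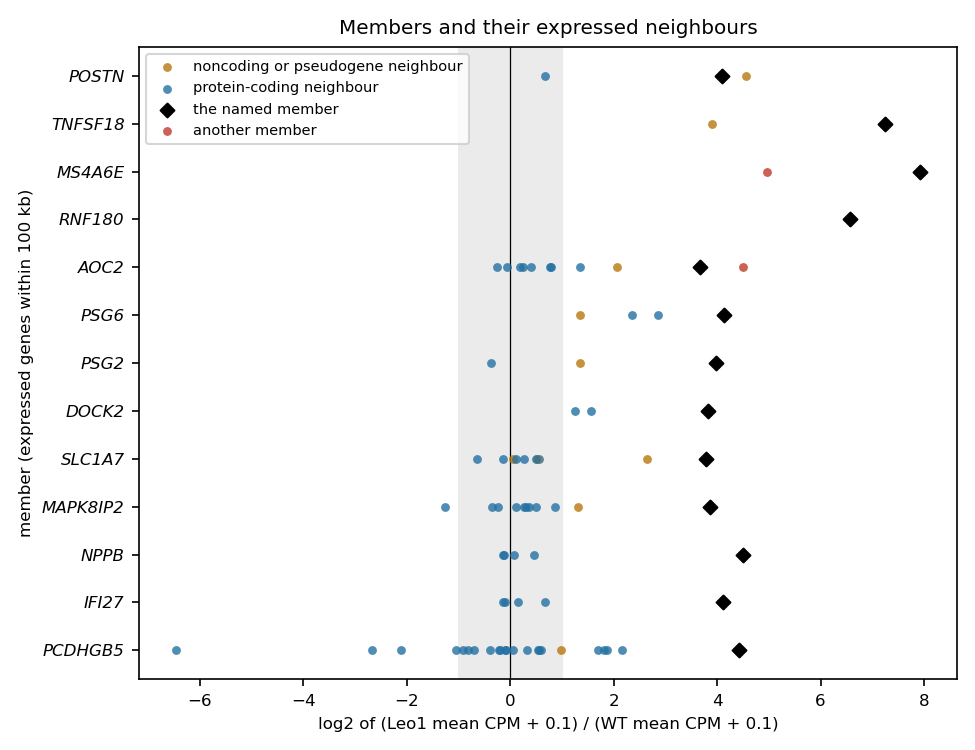
Log2 ratio of mean CPM (plus 0.1) in Leo1 over WT libraries (x axis) for 13 members (black diamonds) and each gene within 100 kb read at 0.5 CPM or more (circles; red for another member, blue for protein-coding and ochre for other genes). The grey band spans 2-fold. Around AOC2, SLC1A7, MAPK8IP2, NPPB and IFI27 most protein-coding neighbours lie within it. The 2 protein-coding genes beside or overlapping DOCK2 and the 2 beside PSG6 lie to its right.

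To ask whether the members respond to serum in the knockout cells, the Leo1 libraries of 0.1% and 10% serum were compared. The rule did not set the sera against each other. It averaged over both, so a gene high in 1 serum alone could enter. Of the members, 36 met the rule in 10% serum and 26 in 0.1% serum, so the counts below are not independent of the choice. On the scale of the ERCC transcripts, which were added at the same dilution, 23 of the 38 members were lower in 0.1% serum and none was higher (edgeR's quasi-likelihood test, Benjamini-Hochberg adjusted p under 0.05 over 13236 genes). On this scale 36.4% of all tested genes were lower and 0.793% higher, and the median log2 fold change was -1.05 over all genes and -1.64 over the members. Relative to the other genes, with TMM scaling, 15 of the 38 were lower and 1 was higher, against 12.1% and 15.5% of all tested genes. The median over the members was then -0.84, and 10 of them had positive values.

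Part of this count is fixed by the filter and by the floor of the rule. PSG2, PSG6, NPPB and MS4A4A had no library over 1 CPM in 0.1% serum, passed only through 10% serum and had to be lower. SUCNR1 and LRP2 were not over 1 CPM in all 3 low-serum libraries. Their means there were 1.02 and 1.30 CPM, under the floor of 2 CPM. They reached the floor through 10% serum and had to be lower too. Of the 32 members over 1 CPM in all 3 low-serum libraries, 17 were lower on the ERCC scale and 9 relative to other genes. By CPM alone, all 3 libraries of 0.1% serum lay below all 3 of 10% serum for 15 members (15.8% of all tested genes did) and above them for 7 (27.3%). The groups overlapped for 16.

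For the 6 members whose direction the filter or the floor fixed, the log2 fold changes on the ERCC scale are descriptions. They were -6.17 for NPPB, -5.55 for PSG6, -5.47 for PSG2, -3.97 for SUCNR1, -3.86 for MS4A4A and -2.99 for LRP2. Among the others, ACTC1 (-3.997 ± 0.55 SE) and IFI27 (-3.87 ± 0.59) had the lowest values, with adjusted p of 2.0e-10 and 1.4e-08 by edgeR's quasi-likelihood test. Both were also lower relative to the other genes, with -3.04 and -2.53 on the log2 scale. Both met the rule in 10% serum and not in 0.1% serum. By CPM the sera overlapped for IFI27. Its largest adjusted p relative to other genes with 1 library left out was 0.0493 (edgeR's quasi-likelihood test). For ACTC1 the smallest fall relative to other genes with 1 library left out was -1.59, and without the highest-numbered libraries the value was -1.525.

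MS4A6E fell, with a log2 fold change of -3.78 ± 0.55 (adjusted p = 2.4e-09, edgeR's quasi-likelihood test). CPA3 (-3.03 ± 0.53), FABP4 (-2.66 ± 0.56), DOCK2 (-2.49 ± 0.56), SLC1A7 (-2.41 ± 0.56), FAT3 (-1.89 ± 0.54) and GDA (-1.72 ± 0.49) were lower on both scales too. For SLC1A7 and GDA the adjusted p relative to other genes rose to 0.068 and 0.095 when 1 library was left out (edgeR's quasi-likelihood test). On the ERCC scale the calls of FAT3 and GDA ended when 1 library was left out (largest adjusted p = 0.11 and 0.13, edgeR's quasi-likelihood test).

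POSTN was lower on the ERCC scale (-2.65 ± 0.48, adjusted p = 3.1e-06, edgeR's quasi-likelihood test), and all 3 low-serum libraries were below all 3 of 10% serum by CPM. Relative to other genes its value of -1.60 had an adjusted p of 0.093. PODXL, RGS7BP, RNF180, PRLR, STAC, PCDH9 and AOC2 were likewise called on the ERCC scale only, with values relative to other genes from -1.29 (PODXL) to -0.23 (AOC2). Of these 7, only PODXL kept its call with any 1 library left out, so that 15 of the 23 members lower on the ERCC scale did in all. In RGS7BP and STAC, libraries 10 and 11 were low and library 12 was near the level of 10% serum.

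The remaining 15 members were not called on the ERCC scale, and their values were near the median of all genes or above it. TNFSF18 (-1.09 ± 0.47, adjusted p = 0.053) and NPBWR1 (-1.02 ± 0.53) had values close to the median of all genes, with -0.04 and -0.02 relative to other genes. LUZP2 was the single member with a value at or over 0 on the ERCC scale (0.05 ± 0.52) and the single one higher relative to other genes (0.97 ± 0.27, adjusted p = 0.019). All 3 of its low-serum libraries were above all 3 of 10% serum by CPM, though the adjusted p rose to 0.070 when 1 library was left out. ADGRD1 (0.50), GFRA1 (0.55), OR2T8 (0.53) and MAPK8IP2 (0.44) had positive values relative to other genes that did not pass the threshold.

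**Figure D5:**
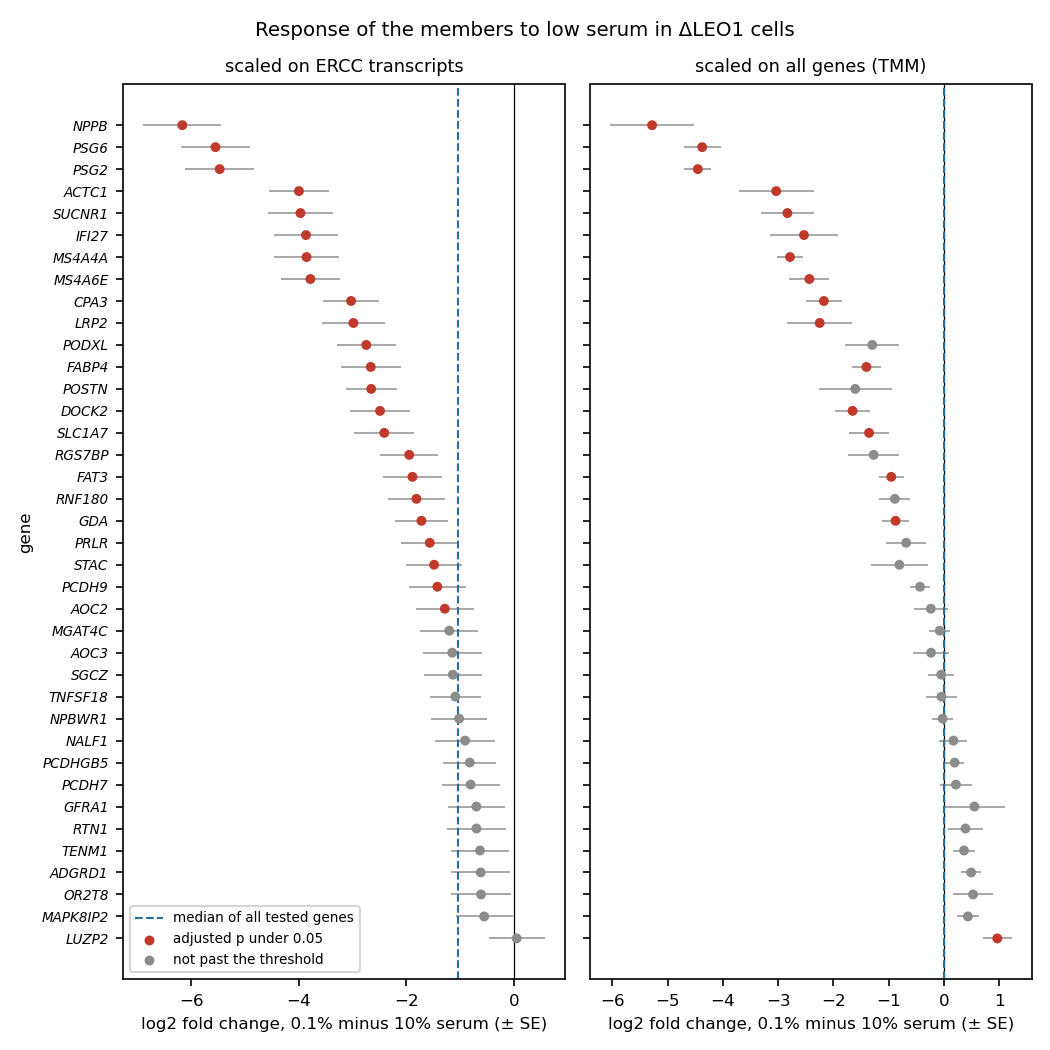
Log2 fold change of 0.1% minus 10% serum in Leo1 cells (x axis, bars are 1 SE, 3 libraries a group) for the 38 members (y axis), scaled on the ERCC transcripts (left) and on all genes (right). Red points had an adjusted p under 0.05 and the dashed line is the median of all tested genes, -1.05 on the left and 0.01 on the right; NPPB, PSG6 and PSG2 lie farthest to the left in both and only LUZP2 is red to the right of 0.

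The ERCC scale itself depended on library 12. Its ERCC total was 390027 counts, against 665940 and 1090393 in libraries 10 and 11. Leaving out library 12 made 36 members lower and 87.4% of all tested genes with them, and leaving out library 10 or 11 left 15, with 3.06% and 6.19% of all genes. Without the highest-numbered library of every group all 38 members were lower, as were 91.3% of all genes. On the scale relative to other genes, 13 to 20 members were lower with 1 library left out, where 7.67% to 15.1% of all genes were, and 22 were lower and 4 higher without the highest-numbered libraries, where 27.6% and 28.1% of all genes were.

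Whether wild-type cells respond alike could be read for the 16 members with at least 10 counts in 3 or more WT libraries. Of these 11 were lower in 0.1% serum on the ERCC scale and none was higher, where 27.0% and 0.831% of all genes were. PSG2, PSG6, SLC1A7, STAC and DOCK2 reached 10 counts in no WT library of 0.1% serum and qualified through 10% serum, so their direction was fixed. Such counts in all 6 WT libraries were found for 5 members, and 4 of these were lower on the ERCC scale, TNFSF18 (-1.21 ± 0.49), GDA (-1.78 ± 0.51), ACTC1 (-3.41 ± 0.56) and PCDHGB5 (-1.55 ± 0.54), where the median of all genes was -0.97. Only ACTC1 kept that call with any 1 library left out, and the largest adjusted p of TNFSF18, GDA and PCDHGB5 was then 0.33, 0.056 and 0.20 (edgeR's quasi-likelihood test). Relative to other genes 2 of the 5 passed, ACTC1 (-2.65, adjusted p = 0.037) and PCDHGB5 (-0.65, adjusted p = 0.047), by edgeR's quasi-likelihood test, where 16.1% of all genes were lower and 15.5% higher.

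Whether the response differed with genotype was tested as an interaction. It compares the genotype ratios of the sera, from levels that the rule also used, so the values below are not independent of the choice. POSTN, IFI27 and PODXL met the rule in 10% serum and not in 0.1% serum. STAC and SLC1A7 met it in 0.1% serum and not in 10% serum. None of the 16 members passed the threshold on the ERCC scale (smallest adjusted p = 0.21, edgeR's quasi-likelihood test) or relative to other genes (0.18). An unadjusted p under 0.05 on the ERCC scale (quasi-likelihood test) was seen for 4 of them, POSTN, STAC, IFI27 and PODXL. It was seen for 280 of all 13236 tested genes. In 0.1% serum STAC reached 10 counts in no WT library and IFI27 in 1. Over all genes 0.113% were called with a higher and 0.0604% with a lower response in the knockout on the ERCC scale, and 1.55% and 0.453% relative to other genes. POSTN had the smallest p. Its response was -2.65 in knockout cells and -0.48 ± 0.45 in wild-type cells, a difference of -2.17 ± 0.64 (adjusted p = 0.21, quasi-likelihood test). That value turned on single libraries. The difference was -2.76 (adjusted p = 0.0015, quasi-likelihood test) without library 12, -3.03 (0.022) without library 1 and -2.61 (0.0093) without the highest-numbered library of every group, and it was -1.61 (adjusted p = 1.00) without library 3, the WT library with 5.74 CPM of POSTN. Relative to other genes the difference was -1.79 (adjusted p = 0.015, quasi-likelihood test) without library 3 and -2.001 (3.1e-05) without the highest-numbered libraries. In that last fit 15.4% of all genes were called with a higher and 8.45% with a lower response in the knockout. STAC and SLC1A7 were called higher in it, but neither had a WT library of 0.1% serum with 10 counts.

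Genes of the same functional classes that are not members moved in both directions. The classes with 2 or more members were cell adhesion, cytoskeleton, growth factors and ligands, metabolic enzymes, receptors and signalling regulators, with 1484 other tested genes in all. These classes were set by gene symbol, cover only part of the members and differ from the role groups above. PSG2 and PSG6 fall under cell adhesion here, and FAT3, PODXL, MS4A6E and NPBWR1, among others, in no class. In 10% serum 106 of these were higher and 142 lower in the knockout, and in 0.1% serum 114 and 126 (edgeR's quasi-likelihood test, ERCC scale). Over all tested genes 3.81% were higher and 4.2% lower in 10% serum, and 3.49% and 3.41% in 0.1% serum. Relative to other genes, 236 of the class genes were higher and 499 lower in 10% serum and 282 and 375 in 0.1% serum, where 17.9%, 21.4%, 15.1% and 17.3% of all tested genes were. Of 116 other adhesion genes, 12 were higher and 18 lower in 10% serum, and of 211 other receptor genes 18 and 24.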

How the data were processed

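RNA was measured in WT and ΔLEO1 BJ-5ta fibroblasts, 3 libraries in each of 4 groups, grouped by the titles of the samples. The authors aligned paired-end reads of 58 bases to an Ensembl genome with the ERCC sequences (STAR) and counted reads in exons (featureCounts 1.5.1), and the submitters' processing notes name GRCh38. The annotation release and strand setting are not given in the sources used here. The deposited files hold raw counts per gene and per ERCC transcript. CPM were computed from the gene totals.

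Protein-coding status and positions came from GENCODE 29 for 58453 identifiers and from RefSeq by symbol for 77 more. Counts were tested with edgeR 4.0.16 (R 4.3.3), quasi-likelihood, in 1 fit of 12 libraries with 4 groups, on genes over 1 CPM in 3 or more libraries, with ERCC totals times TMM factors on the ERCC transcripts as library sizes and p adjusted by Benjamini-Hochberg. TMM on the genes gave changes relative to other genes. DESeq2 1.42.0 was an alternative. On simulated data of 13236 genes the test recovered 100 of 100 genes changed 8-fold and 79 of 100 changed 4-fold, and called 9 of 13036 unchanged genes. The changed genes were drawn from those with higher counts, and the simulated means followed the library sizes of the fit. Error in the ERCC scale and the standing apart of the highest-numbered libraries were not simulated, so these rates may not hold for the real libraries.

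The members, role groups and lists were chosen with earlier results of these data known. Mast cell, macrophage, adipocyte and placental markers were added after the members were seen. Named genes were the 12 most abundant members, the 6 largest called serum responses in each direction, up to 4 per class, those within 500 kb of each other and those at the thresholds, and the remaining members were named after their values were seen. Of the marker lists, epithelial genes summed to 1.58 to 5.25 CPM, endothelial to 6.54 to 17.6, neural to 5.06 to 28.0 and melanocyte to 15.8 to 71.5 CPM over the libraries, the last mainly MITF. Another marker list is not reported here.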

Additional observations from a re-analysis of the deposited data

How the results depend on the processing

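Members: the rule gave 62 genes with a ratio of 1/8, 22 with 1/32, 24 with a floor of 5 CPM, 24 when met in both sera, and 16 when the lowest Leo1 library had to exceed 16 times the highest WT library. With 1 library left out it gave 36 to 41. Within 1 Mb as within 500 kb, 8 members had another member.

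Serum response in Leo1 cells, ERCC scale: instead of 23 lower, TMM on the genes, DESeq2 size factors on the genes and a fit of the 6 Leo1 libraries each gave 15, and omitting the highest-numbered libraries 38. In the same order, 1604 of 13236, 1592 of 13236, 546 of 13227 and 12088 of 13236 genes were lower. Leaving out 1 library gave 15 to 36, where 405 to 11565 of 13236 genes were lower. Both scalings on genes gave 1 member higher. Of 13236 genes, 2055 (TMM) and 2050 (DESeq2 size factors) were higher with these scalings. Their values against a negative one on the ERCC scale were 0.20 and 0.20 for PCDHGB5, 0.44 and 0.44 for MAPK8IP2, 0.55 and 0.56 for GFRA1, 0.37 and 0.37 for TENM1, 0.22 and 0.22 for PCDH7, 0.39 and 0.39 for RTN1, 0.53 and 0.53 for OR2T8, 0.50 and 0.49 for ADGRD1 and 0.17 and 0.17 for NALF1, with TMM and DESeq2 size factors. LUZP2 was -0.97 without the highest-numbered libraries, -0.20 with them as a covariate, and -0.91 to 0.43 with 1 library left out. The scalings on genes move the median of all genes from -1.05 to 0.01.

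Relative to other genes, members called higher were 4 without the highest-numbered libraries and 0 to 2 with 1 library left out. Of 13236 genes, 1387 to 2378 were higher with 1 library left out. In WT cells 1 member was higher with TMM (MAPK8IP2), 0 with 1 library left out, and 7 to 14 were lower with 1 library left out. Of 13236 genes, 67 to 182 were higher and 745 to 8107 lower in WT cells with 1 library left out, on the ERCC scale. For the interaction, 1 member was lower without the highest-numbered libraries, and 0 to 1 were lower and 0 to 1 higher with 1 library left out. Of 13236 genes, 54 were lower without the highest-numbered libraries. With 1 library left out, 3 to 56 of them were lower and 8 to 47 higher. Relative to other genes 1 member was lower (POSTN) and 2 higher (STAC, SLC1A7) without the highest-numbered libraries, and 0 to 1 lower with 1 library left out. In the latter fits 28 to 102 of 13236 genes were lower. STAC was the 1 higher on the ERCC scale, without library 11. Other class genes with TMM were 236 higher and 499 lower in 10% serum and 282 and 375 in 0.1% serum. On the ERCC scale 329 were lower in 0.1% serum without the highest-numbered libraries, where 1645 of 13236 genes were. With 1 library left out they were 69 to 164 and 92 to 197 in 10% serum, and 76 to 234 and 81 to 235 in 0.1% serum. Of 13236 genes, 325 to 964 were then higher and 377 to 784 lower in 10% serum, and 275 to 1141 and 313 to 958 in 0.1% serum. The cause of these shifts was not tested. Alternatives for the interaction, wild-type and class counts with a library left out, and those relative to other genes, were chosen after seeing the data. No paired analysis was possible because the libraries carry running numbers and no group shares a number with another.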

Other observations

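Genes that are not protein-coding met the same rule in 10 cases. LINC00355, on chromosome 13, had 12.2 CPM in the Leo1 libraries (10.6 to 13.1 CPM) and no count in the 6 WT libraries, and its level was close in both sera, with 12.8 CPM in 10% serum and 11.7 CPM in 0.1% serum. LINC00547 beside POSTN and LNCAROD on chromosome 10 were instead nearly absent in 0.1% serum: LINC00547 was at 5.03 CPM in 10% and 0.114 CPM in 0.1% serum, and LNCAROD at 4.39 and 0.115 CPM. LINC01915 (5.88 CPM, against 0.306 CPM in WT libraries) and an unnamed noncoding gene next to it (4.42 against 0.207 CPM) lie side by side on chromosome 18, which holds no protein-coding member. CEACAMP10, a pseudogene on chromosome 19 near the PSG genes, was at 4.43 and 0.266 CPM. The genotype contrast chose these genes, and no test was made.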
